A study of Mus musculus with 6 samples.

Results

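Chemokine ligands and chemokine receptors were described across 4 liver and 2 adrenal RNA sequencing libraries from mice that lack Abcg8. The members were every gene symbol of the deposited count table that starts with Ccl, Cxcl, Xcl or Cx3cl (ligands) or with Ccr, Cxcr, Xcr, Cx3cr or Ackr (receptors) and ends in a number, with a letter allowed after it for ligands. This gave 61 of 33639 gene symbols, of which 39 were ligands and 22 were receptors. Ligands and receptors are given apart.

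The livers came from mice fed high sitosterol, ergosterol, stigmasterol or low sitosterol, and the adrenal glands from mice fed high sitosterol or low sitosterol. Every mouse, those on low sitosterol included, was a global Abcg8 knockout labelled male, had been kept on a low sterol diet with 0.005% ezetimibe (a blocker of sterol uptake in the gut) up to weaning, and then ate its diet for 12 weeks. Each group was 1 mouse and 1 library, there was no group with intact Abcg8, and the sterol doses are not given in the sources used here. ABCG8 pairs with ABCG5 in a transporter that moves plant sterols out of hepatocytes and gut cells. Sitosterol and stigmasterol are plant sterols, and ergosterol is the main sterol of fungi. The series asked what dietary sterols other than cholesterol do to gene expression, with low sitosterol as the comparator.

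Chemokines are small proteins, most of them secreted and a few held on the cell surface, that guide leukocytes through receptors coupled to G proteins. They are named C, CC, CXC or CX3C by the spacing of their leading cysteines, most inflammatory receptors bind several of them, and the atypical receptors (Ackr) take chemokines up without signalling through G proteins. In liver, Kupffer cells, endothelial cells, stellate cells, bile duct cells and hepatocytes can all make them, and the CCL2 with CCR2 route is best known for bringing in monocytes, CXCL1 and CXCL2 for neutrophils, and CXCL9, CXCL10 and CXCL11 for T cells.

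Library totals ran from 41546678 to 50573529 estimated counts. Values of a gene are given as scaled CPM (CPM, the count relative to the library total, after TMM scaling within the tissue), and levels of different genes only as deposited TPM, which is per transcript length. A member was analysed in a tissue if any library there gave it 1 CPM or more. These were 24 of 39 ligands and 13 of 22 receptors in liver, and 23 ligands and 10 receptors in adrenal. Since any 1 library can carry a member over that limit, counts and medians over analysed members describe these libraries and support nothing by themselves. Calls of higher or lower needed a 2-fold ratio or more whose 95% interval (Clopper-Pearson, conditional binomial) left out equality. Groups of 1 library allow no test and no check against replicates, and the intervals cover counting error only. A ratio compares 2 libraries and not 2 diets, and the 3 liver comparisons share the low sitosterol library.

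Abcg8 itself had 490, 394 and 788 estimated counts in the high sitosterol, ergosterol and stigmasterol livers and 51 in the low sitosterol liver, and 3 in the high sitosterol and 2 in the low sitosterol adrenal. The sources used here do not say which stretch was deleted, so these gene totals do not check the knockout. The Y-linked genes Eif2s3y and Ddx3y had 1188 to 2201 counts in each liver but 0 to 3 in both adrenals, so the adrenal libraries went against their male label. The series text says that liver and adrenal came from 1 mouse in each group, and whether these adrenals came from the same mice as the livers is in doubt. Hepatocyte markers summed to 154800, 123500 and 66370 scaled CPM in the high sitosterol, ergosterol and stigmasterol livers and 128900 in the low sitosterol liver, and adrenal cortex markers to 57260 in the high sitosterol and 56940 in the low sitosterol adrenal. The low sitosterol liver also held 107.5 scaled CPM of adrenal cortex markers, against 4.11 to 8.58 in the other livers. With library totals in place of TMM the median of all genes moved up by 0.19, 0.16 and 0.69 (log2) in the comparisons of the high sitosterol, ergosterol and stigmasterol livers, and the share of calls that were higher was 78.4%, 65.1% and 92.9% in place of 66.9%, 51% and 73.6%. Scaled by totals, 14 ligands and 5 receptors were called higher for high sitosterol and 17 ligands and 11 receptors for stigmasterol.

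Among the ligands whose neutrophil or T cell partners are best known, Cxcl1, Cxcl2 and Cxcl10 carry matches to a kappaB motif, the site bound by NF-kB, just before their start, and they are shown because these genes of chromosome 5 differed in their calls. The motif was searched on both strands as GGG, any 3 bases and then TTCC, in the RefSeq promoters of GRCm38.p6, from 250 bases before to 50 bases after each start, and the interferon response motif as GAAA, any 2 bases and then GAAA. The 250 bases before the start are shown for these genes, on the strand of the gene, with the letters of every match in capitals. Overlapping matches on opposite strands run together in the capitals of Cxcl1 and Cxcl2.
Cxcl1, chr5:90890995-90891244, plus strand: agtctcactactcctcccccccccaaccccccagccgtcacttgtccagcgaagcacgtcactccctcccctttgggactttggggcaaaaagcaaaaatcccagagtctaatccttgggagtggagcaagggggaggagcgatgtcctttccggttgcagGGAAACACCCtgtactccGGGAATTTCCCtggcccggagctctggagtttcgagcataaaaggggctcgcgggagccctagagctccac
Cxcl2, chr5:90903649-90903898, plus strand: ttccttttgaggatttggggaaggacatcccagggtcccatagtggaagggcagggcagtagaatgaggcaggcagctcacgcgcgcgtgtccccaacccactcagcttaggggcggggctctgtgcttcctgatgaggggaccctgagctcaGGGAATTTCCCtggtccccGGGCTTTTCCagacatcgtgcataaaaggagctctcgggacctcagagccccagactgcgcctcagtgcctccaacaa
Cxcl10, chr5:92348890-92349139, minus strand: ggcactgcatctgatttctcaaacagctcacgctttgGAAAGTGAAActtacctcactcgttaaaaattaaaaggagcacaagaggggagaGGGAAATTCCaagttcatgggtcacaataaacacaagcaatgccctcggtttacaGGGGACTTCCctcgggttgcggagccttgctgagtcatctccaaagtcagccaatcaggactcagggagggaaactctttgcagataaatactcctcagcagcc
In Cxcl10, GAAAGTGAAA is the match to the interferon response motif, and the other capitals are kappaB matches. A promoter was listed for 45 of the 61 members. The kappaB letters were in 7 of 27 ligand promoters (25.9%), 2 of 18 receptor promoters (11.1%) and 6.31% of 27025 promoters of all genes. The interferon response letters were in 3 ligand promoters (11.1%), 0 of 18 receptor promoters and 3.99% of all. A match describes the letters and is not a binding site.

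Summed over the 39 ligands, TPM was 277.6 with high sitosterol, 200.7 with ergosterol and 550.4 with stigmasterol, against 138.0 with low sitosterol. Ligands at 1 TPM or more numbered 21, 14 and 24 in those 3 livers and 16 in the low sitosterol liver. Cxcl12, the ligand of CXCR4, was the ligand of highest TPM in the ergosterol (96.7), stigmasterol (198) and low sitosterol (54.25) livers, and Ccl9, a CCR1 ligand, led in the high sitosterol liver with 59.0 TPM beside 54.9 for Cxcl12. TPM levels of these 3 livers carry a shift of all genes. On the log2(TPM + 0.1) scale the median gene stood 0.21, 0.36 and 0.94 above the low sitosterol liver with high sitosterol, ergosterol and stigmasterol.

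In the high sitosterol liver, the monocyte attractant Ccl2, the neutrophil attractant Cxcl1 and the T cell attractants Ccl5 and Cxcl10 were higher than in the low sitosterol liver, while Cxcl2, Cxcl9 and Ccl9 were not called. Of the 24 analysed ligands 12 were called higher (beside 8.67% of all 13378 genes) and 0 lower (beside 4.3% of all genes), with a median log2 ratio of 1.11 over the ligands and -0.05 over all genes. The median was 1.24 with Cxcl5 set against 3 counts and Ccl21c, at 0 and 2 counts, left out. In the ergosterol liver 2 ligands were called higher (8.33%, beside 6.05% of all genes) and 5 lower (beside 5.81%). Ccl21c was among the 2 and its near-identical copy Ccl21a among the 5, and their sum was under 2-fold. The median was -0.09 over the ligands (-0.13 without Cxcl5, which had 0 counts in both libraries) and 0.02 over all genes. In the stigmasterol liver 12 were called higher (beside 21.7% of all genes) and 1 lower (beside 7.79%), with a median of 1.20 over the ligands and 0.08 over all genes. Calls in either direction made up 13.0%, 11.9% and 29.5% of all genes in these 3 comparisons. Among called ligands, Ccl3 and Ccl7 reached 1 CPM in the high sitosterol liver only, and Ccl21c, Ccl22 and Cxcl5 in the stigmasterol liver only. In bulk tissue, fewer cells of a type and less RNA per cell cannot be told apart.

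**Figure D1:**
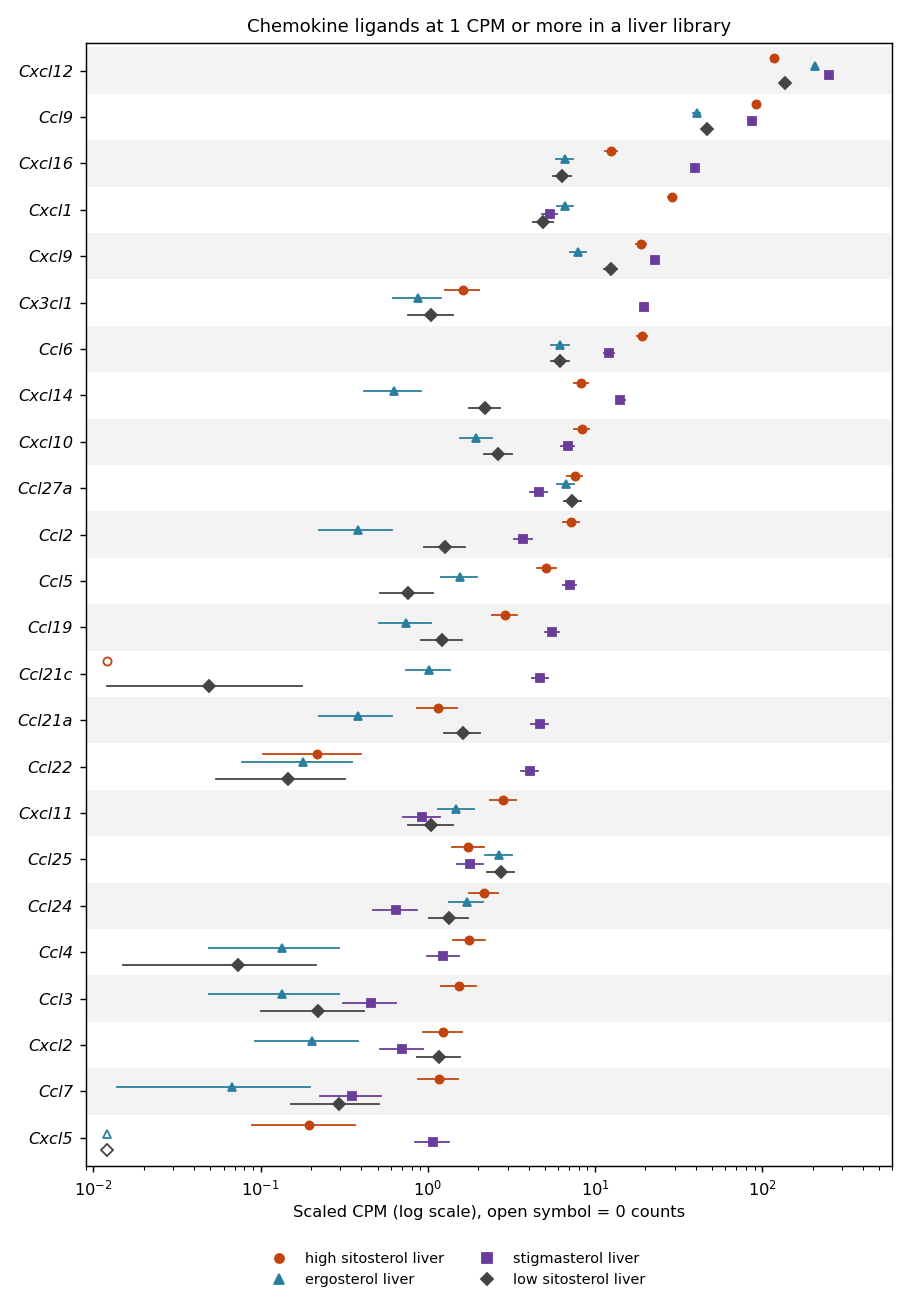
Scaled CPM (log axis) of the 24 analysed ligands in the 4 liver libraries, 1 symbol per library, with lines for the exact Poisson 95% interval of the count and open symbols at the left edge for 0 counts. Ccl2, Cxcl1, Ccl5 and Ccl4 lie to the right in the high sitosterol liver, while Cx3cl1, Ccl22, Cxcl16 and Ccl5 lie to the right in the stigmasterol liver.

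Ccl2, the main monocyte attractant through CCR2, had 7.21, 0.382 and 3.73 scaled CPM in the livers fed high sitosterol, ergosterol and stigmasterol and 1.27 in the low sitosterol liver. Its log2 ratios to low sitosterol were 2.49 (95% interval 2.08 to 2.96), -1.70 (-2.62 to -0.92) and 1.55 (1.12 to 2.01), in the same order of diets. Ccl2 was thus high in the high sitosterol liver, lower but still raised in the stigmasterol liver, and lowest in the ergosterol liver. Ccl7, a close relative that also binds CCR2, had 1.17, 0.0673 (3 counts) and 0.352 scaled CPM in the high sitosterol, ergosterol and stigmasterol livers and 0.293 in the low sitosterol liver, with log2 ratios of 1.95 (1.07 to 3.03), -1.95 (-4.59 to -0.23) and 0.26 (-0.79 to 1.40). Both genes lie in a run of 6 ligand genes on chr11:82035571-82305690 (GENCODE M21 genes on GRCm38). They were the 2 analysed there in liver, and Ccl7 was not called in the stigmasterol liver. Ccl7, Ccl3, Ccl4, Cxcl2 and Cxcl5 are under 2 scaled CPM in every liver, and they and Ccl9, Ccl25 and Ccl27a were chosen after their values were seen.

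The genes Ccl5, Ccl9, Ccl6, Ccl3 and Ccl4 lie in a further run of 5 ligand genes on chr11:83525778-83664683. Ccl5, which draws T cells and monocytes, had 5.12, 1.55 and 7.05 scaled CPM in the high sitosterol, ergosterol and stigmasterol livers and 0.757 in the low sitosterol liver. Its log2 ratios were 2.74 (2.21 to 3.35), 1.02 (0.40 to 1.69) and 3.20 (2.70 to 3.79), so that Ccl5 was called higher in each of the 3 livers, in the ergosterol liver just past 2-fold. With a prior count of 3 the ergosterol ratio was 0.97 and that call was lost. Ccl4 had 82, 6 and 84 counts in those livers and 3 in the low sitosterol liver, with log2 ratios of 4.39 (3.0 to 6.90), 0.78 (-1.35 to 3.51) and 3.91 (2.47 to 6.38). Ccl3 had 1.53, 0.135 and 0.455 scaled CPM in them and 0.220 in the low sitosterol liver, with log2 ratios of 2.74 (1.80 to 3.99), -0.66 (-2.48 to 0.95) and 1.02 (-0.06 to 2.30). These neighbouring genes, both known as early products of activated macrophages, differed in the stigmasterol liver, where Ccl4 was called and Ccl3 was not.

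Ccl6 and Ccl9 are mouse CCR1 ligands made by myeloid cells. Ccl6 had 19.1, 6.20 and 12.1 scaled CPM in the high sitosterol, ergosterol and stigmasterol livers and 6.21 in the low sitosterol liver. Its log2 ratios were 1.62 (1.42 to 1.83), -0.00 (-0.25 to 0.25) and 0.96 (0.76 to 1.17), the last just under 2-fold. Ccl9 had 92.0, 40.5 and 86.6 scaled CPM and 46.9 in the low sitosterol liver, with log2 ratios of 0.97 (0.90 to 1.05), -0.21 (-0.30 to -0.12) and 0.89 (0.81 to 0.96). Ccl9 was under 2-fold in all 3 comparisons, but it was called higher for high sitosterol and stigmasterol with library totals and with TPM. Ccl3 and Ccl6 were also called for stigmasterol with library totals and with log2(TPM + 0.1). In this chr11 run 4 of 5 genes were called higher with high sitosterol, 2 with stigmasterol and 1, Ccl5, with ergosterol.

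The ligands of CXCR2, the neutrophil receptor, did not move together. Cxcl1, whose promoter is shown above, had 28.8, 6.62 and 5.35 scaled CPM in the livers fed high sitosterol, ergosterol and stigmasterol, and 4.89 with low sitosterol. The log2 ratios were 2.56 (2.34 to 2.78), 0.44 (0.17 to 0.70) and 0.13 (-0.12 to 0.39). Cxcl1 passed 2-fold in the high sitosterol liver only, but on the log2(TPM + 0.1) scale it was also called for stigmasterol (1.16). Cxcl2, its neighbour on chromosome 5 with the same GGGAATTTCC letters before its start, had 1.23, 0.202 and 0.704 scaled CPM and 1.17 in the low sitosterol liver. Its log2 ratios were 0.07 (-0.51 to 0.65), -2.47 (-3.75 to -1.49) and -0.73 (-1.34 to -0.13), so that Cxcl2 was called lower in the ergosterol liver and was not called in the other comparisons. The direction for stigmasterol depends on the scaling. Cxcl2 had 48 counts both there and in the low sitosterol liver, and 1.20 against 1.02 TPM. Cxcl5 had 9, 0 and 73 counts in those livers and 0 in the low sitosterol liver. Set against 3 counts there, it was 2.65-fold higher in the high sitosterol liver and 14.6-fold higher in the stigmasterol liver. These folds leave out the counting error of the 9 and 73 counts. Neutrophil markers summed to 12.7, 2.92 and 13.6 scaled CPM in the 3 livers and 9.92 in the low sitosterol liver. In the ergosterol liver 3 of 6 analysed ones were called lower (beside 5.81% of all genes). Of the 10 listed, 5 were at 0 there: Ly6g, Retnlg, Mmp8, Ltf and Camp. Ly6g was at 0 in the high and low sitosterol livers too. Among these only Retnlg was analysed in liver, and it had 13 counts in the low sitosterol liver. The part of neutrophils in the values of these ligands and of Cxcr2 was not tested.

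Cxcl9, Cxcl10 and Cxcl11, the CXCR3 ligands known as products of interferon gamma, lie side by side on chr5:92321347-92365485. Cxcl10 had 8.31, 1.95 and 6.86 scaled CPM in the high sitosterol, ergosterol and stigmasterol livers and 2.64 in the low sitosterol liver. Its log2 ratios were 1.65 (1.34 to 1.98), -0.43 (-0.86 to -0.01) and 1.38 (1.07 to 1.69). Cxcl9 had 18.8, 7.90 and 22.9 scaled CPM and 12.4 in the low sitosterol liver, with log2 ratios of 0.59 (0.44 to 0.76), -0.65 (-0.85 to -0.46) and 0.88 (0.73 to 1.03), none past 2-fold, though it was called for stigmasterol with library totals (1.57) and with log2(TPM + 0.1) (1.93). Cxcl11 had 2.83, 1.48 and 0.924 scaled CPM and 1.05 in the low sitosterol liver, and its log2 ratios were 1.42 (0.92 to 1.96), 0.49 (-0.08 to 1.09) and -0.18 (-0.77 to 0.41). Cxcl10 was called in the high sitosterol and stigmasterol livers and Cxcl11 in the high sitosterol liver. GENCODE M21 lists Cxcl11 as a polymorphic pseudogene, and 41.7% of its exon bases lie in exons of Gm2673, as do 5.91% of those of Cxcl10 in exons of Art3. The library kit named in the labels does not mark strand, so reads of overlapping genes cannot be told apart.

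In the stigmasterol liver, Cx3cl1, Cxcl16 and Ccl22 were among the 12 ligands called higher. Cx3cl1, the membrane-bound ligand of CX3CR1, had 1.62, 0.875 and 19.5 scaled CPM in the high sitosterol, ergosterol and stigmasterol livers and 1.05 in the low sitosterol liver. The log2 ratios of Cx3cl1 were 0.62 (0.06 to 1.20), -0.26 (-0.93 to 0.40) and 4.21 (3.78 to 4.69), the last an 18.4-fold difference. Cxcl16, the membrane-bound ligand of CXCR6 that also takes up oxidised lipoprotein, had 12.5, 6.60 and 39.8 scaled CPM and 6.33 in the low sitosterol liver, with log2 ratios of 0.98 (0.77 to 1.20), 0.06 (-0.19 to 0.31) and 2.65 (2.47 to 2.84). With library totals and with TPM it was also called for high sitosterol. Part of it, 18.3% of exon bases, overlaps Zmynd15. Ccl22, a dendritic cell and macrophage ligand of CCR4, had 0.216, 0.180 and 4.06 scaled CPM and 0.147 in the low sitosterol liver, and its log2 ratio for stigmasterol was 4.71 (3.65 to 6.25). The 2 surface ligands and Ccl22 were each highest in the stigmasterol liver, and Ccl22 and Cx3cl1 are neighbours on chr8:94745590-94812036.

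Cholangiocyte markers were 7 of 7 higher in the stigmasterol liver, summing to 912 scaled CPM against 65.0 in the low sitosterol liver, and stellate and matrix markers were 7 of 10 higher, summing to 1132 against 219. Dendritic cell markers were 6 of 6 higher there, at 15.1 against 5.03, and macrophage markers 5 of 12 higher and 3 lower, at 521 against 289. Endothelial markers were 0 of 8 higher and 1 lower, at 122 against 145, and hepatocyte markers 0 of 10 higher and 4 lower. Of all genes, 21.7% were called higher and 7.79% lower in the stigmasterol liver. The part of any of these cell types in the ligand values was not tested.

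Cxcl12, which keeps CXCR4-bearing cells in place in many tissues, had 117, 205 and 251 scaled CPM in the high sitosterol, ergosterol and stigmasterol livers and 137 in the low sitosterol liver. Its log2 ratios of -0.23 (-0.28 to -0.17), 0.58 (0.53 to 0.63) and 0.87 (0.83 to 0.91) stayed under 2-fold. With library totals the stigmasterol ratio was 1.56 and Cxcl12 was called higher. Cxcl14, a CXC ligand of stromal and epithelial cells, had 8.25, 0.628 and 14.2 scaled CPM in those livers and 2.20 in the low sitosterol liver. It was called in all 3 comparisons, higher for high sitosterol (1.90, 1.57 to 2.26) and stigmasterol (2.68, 2.38 to 3.02) and lower for ergosterol (-1.79, -2.47 to -1.18). Ccl2 had the same 3 calls, and all 3 ratios of both genes share the low sitosterol library.

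The CCR7 ligands guide T cells and dendritic cells into lymphoid tissue. Ccl19 had 2.89, 0.741 and 5.53 scaled CPM in the high sitosterol, ergosterol and stigmasterol livers and 1.22 in the low sitosterol liver, with log2 ratios of 1.24 (0.77 to 1.74), -0.71 (-1.40 to -0.06) and 2.17 (1.75 to 2.63). Ccl21a and Ccl21c are near-identical copies between which reads may be split. Ccl21a had 53, 17 and 318 counts in those livers and 66 in the low sitosterol liver, while Ccl21c had 0, 45 and 320 counts and 2 in the low sitosterol liver. Taken apart, Ccl21a was called lower (log2 ratio -2.05, -2.94 to -1.29) and Ccl21c higher (4.08, 2.43 to 7.46) in the ergosterol liver. Their summed counts were 53, 62 and 638 in the 3 livers and 68 in the low sitosterol liver. The log2 ratios of the sum were -0.53 (-1.08 to 0.00), -0.25 (-0.78 to 0.26) and 2.49 (2.13 to 2.88), so only the stigmasterol difference passed 2-fold in the sum. This sum was chosen after seeing the data.

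The remaining analysed ligands were called in few comparisons. Ccl24, an eosinophil ligand of CCR3 made by macrophages, had 2.16, 1.71 and 0.645 scaled CPM in the high sitosterol, ergosterol and stigmasterol livers and 1.34 in the low sitosterol liver. It was the single ligand called lower in the stigmasterol liver (-1.05, -1.66 to -0.46), and that call was lost with library totals, with TPM and with a prior count of 3. Ccl25 and Ccl27a, ligands of CCR9 and CCR10 that act on gut and skin T cells, ran from 1.75 to 2.74 and from 4.59 to 7.54 scaled CPM over the 4 livers and were called in no comparison. Of the ligands not analysed, 12 had counts but stayed under 1 CPM in every liver, and Ccl21b, Ccl26 and Ccl27b had 0 counts in all 4.

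Receptor levels were far below ligand levels per length. Summed over the 22 receptors, TPM was 11.1 with high sitosterol, 7.545 with ergosterol and 40.0 with stigmasterol, against 4.725 with low sitosterol. In the high sitosterol liver 4 of 13 analysed receptors were called higher (30.8%, beside 8.67% of all genes) and 0 lower, with a median log2 ratio of 0.63. In the ergosterol liver 1 was called higher (7.69%, beside 6.05%) and 2 lower, with a median of 0.25. In the stigmasterol liver 10 of 13 were called higher (76.9%, beside 21.7%) and 0 lower, with a median of 2.0. The 3 not called there were Ackr1, Ackr2 and Cxcr2. Ackr3, Ccr1, Ccr7, Cxcr3, Cxcr6 and Xcr1 reached 1 CPM in that liver only, so they entered the 13 through it. Of all genes, 4.3%, 5.81% and 7.79% were called lower with high sitosterol, ergosterol and stigmasterol, and their medians were -0.05, 0.02 and 0.08.

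**Figure D2:**
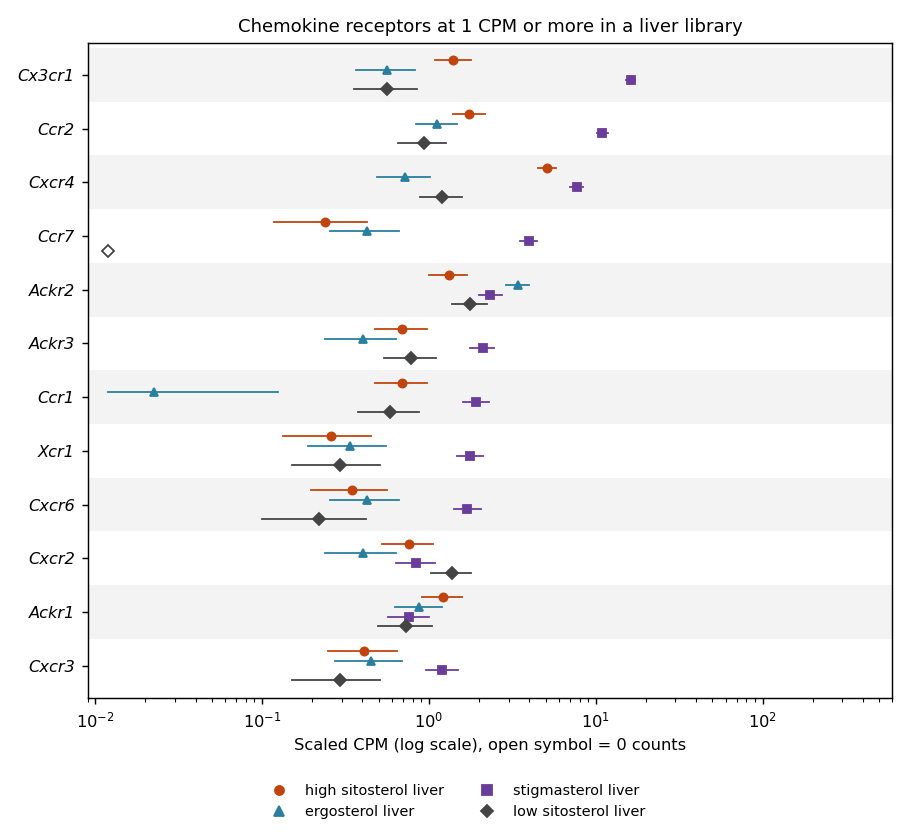
Scaled CPM (log axis) of 12 of the 13 analysed receptors in the 4 liver libraries, 1 symbol per library, with lines for the exact Poisson 95% interval of the count and an open symbol for 0 counts. The stigmasterol symbol lies apart to the right for Cx3cr1, Ccr2 and Ccr7, and the ergosterol symbol of Ccr1 rests on 1 count.

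Cx3cr1, carried by patrolling monocytes and tissue macrophages, had 1.40, 0.561 and 16.2 scaled CPM in the high sitosterol, ergosterol and stigmasterol livers and 0.562 in the low sitosterol liver. The log2 ratios were 1.30 (0.61 to 2.07), -0.00 (-0.88 to 0.88) and 4.83 (4.25 to 5.51). Its stigmasterol difference of 28.4-fold stands beside the 18.4-fold difference of its ligand Cx3cl1. Ccr2, the CCL2 receptor of inflammatory monocytes, had 1.75, 1.12 and 10.9 scaled CPM and 0.928 in the low sitosterol liver. Ratios on the log2 scale were 0.91 (0.34 to 1.51), 0.27 (-0.36 to 0.92) and 3.55 (3.09 to 4.07). In the stigmasterol liver both Ccl2 and its receptor were called. In the high sitosterol liver Ccr2 was not called, but with library totals it was (1.10). Ccr7, the homing receptor of mature dendritic cells and naive T cells, had 11, 19 and 270 counts and 0 in the low sitosterol liver. Set against 3 counts there, Ccr7 was 3.24-fold, 5.82-fold and 54.0-fold higher in these livers. These folds leave out the counting error of the 11, 19 and 270 counts.

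Ccr1, which binds Ccl3, Ccl5, Ccl6 and Ccl9 on myeloid cells, had 32, 1 and 131 counts in the high sitosterol, ergosterol and stigmasterol livers and 24 in the low sitosterol liver. On the log2 scale its ratios were 0.23 (-0.57 to 1.06), -4.13 (-10.07 to -2.09) and 1.70 (1.08 to 2.41). Ccr1 was called lower in the ergosterol liver on that 1 count. Cxcr4, the receptor of Cxcl12, had 5.12, 0.718 and 7.68 scaled CPM and 1.20 in the low sitosterol liver, with log2 ratios of 2.09 (1.65 to 2.57), -0.73 (-1.43 to -0.07) and 2.67 (2.26 to 3.14). Cxcr4 was thus called higher in the high sitosterol and stigmasterol livers, where its ligand was not called. Cxcr3, the T cell receptor of Cxcl9 and Cxcl10, had 0.410, 0.449 and 1.20 scaled CPM and 0.293 in the low sitosterol liver. It was called for stigmasterol (2.0, 1.15 to 3.05) and not for high sitosterol (0.47, -0.63 to 1.66) or ergosterol (0.60, -0.49 to 1.78).

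Cxcr6, Xcr1 and Cxcr2 stayed under 2 scaled CPM and, with Ackr2, were chosen after their values were seen. Cxcr6, the receptor of Cxcl16 on T and NKT cells, had 0.345, 0.426 and 1.70 scaled CPM and 0.220 in the low sitosterol liver, with a log2 ratio of 2.90 (1.98 to 4.12) for stigmasterol. Xcr1, carried by cross-presenting dendritic cells, had 0.259, 0.337 and 1.77 scaled CPM and 0.293 in the low sitosterol liver, with a log2 ratio of 2.56 (1.74 to 3.59) for stigmasterol. Cxcr2, the neutrophil receptor, had 0.756, 0.404 and 0.836 scaled CPM and 1.37 in the low sitosterol liver. It was called lower for ergosterol (-1.73, -2.61 to -0.97) and not for high sitosterol (-0.85, -1.51 to -0.22) or stigmasterol (-0.70, -1.27 to -0.15). The direction for stigmasterol depends on the scaling. Cxcr2 had 57 counts there against 56 in the low sitosterol liver, and 0.462 against 0.403 TPM.

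Among the atypical receptors, Ackr3, a scavenger of Cxcl12, had 0.691, 0.404 and 2.10 scaled CPM in the high sitosterol, ergosterol and stigmasterol livers and 0.782 in the low sitosterol liver, and was called higher for stigmasterol (1.41, 0.86 to 2.02). The low sitosterol liver held adrenal cortex markers at 0.159% of their adrenal level (median of 8 markers), which for Ackr3 would be 0.388 of its 0.782 scaled CPM. TMM scaling was done within each tissue, so liver and adrenal are not on a common scale and this share is approximate. The part of that RNA in the Ackr3 ratios was not tested. Ackr1, the chemokine-binding protein of venous endothelium and red cells, ran from 0.733 to 1.21 scaled CPM over the 4 livers with no call, and 25.7% of its exon bases lie in exons of Cadm3. Ackr2, which degrades inflammatory CC chemokines, had 1.32, 3.41 and 2.33 scaled CPM and 1.76 in the low sitosterol liver, and its highest ratio was 0.95 (0.54 to 1.38), for ergosterol. The 9 receptors not analysed in liver were Ackr4, Ccr3, Ccr4, Ccr6, Ccr8, Ccr9, Ccr10, Cxcr1 and Cxcr5.

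**Figure D3:**
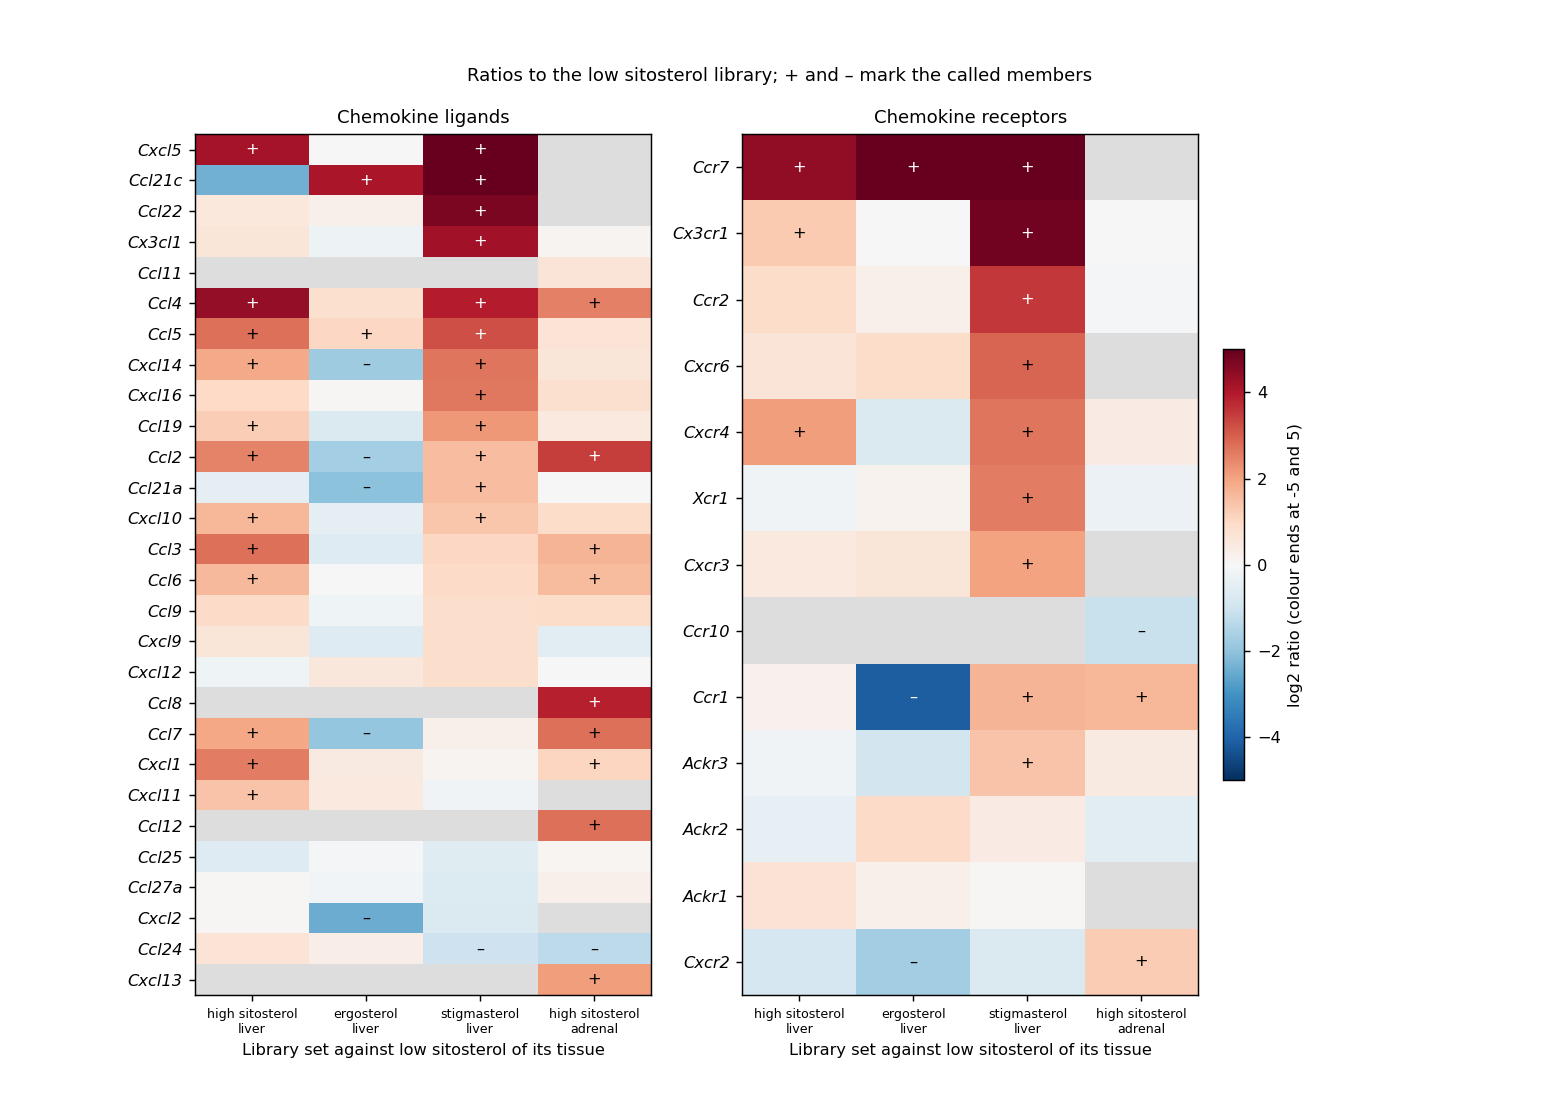
Log2 ratios to the low sitosterol library of the same tissue for members analysed in either tissue (1 receptor is not shown), ligands on the left and receptors on the right, with + and a minus sign for members called higher and lower and grey for members not analysed. Red fills most of the high sitosterol and stigmasterol liver columns, the ergosterol column is mixed, and the ratios of Cxcl5, Ccl21c and Ccr7 against or with 0 counts are fitted values and no bounds.

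The leukocyte marker Ptprc (CD45) had 10.95, 6.76 and 17.8 scaled CPM in the high sitosterol, ergosterol and stigmasterol livers and 3.59 in the low sitosterol liver, log2 ratios of 1.60, 0.91 and 2.31. In the high sitosterol liver 10 of 24 ligands and 2 of 13 receptors had a higher ratio than Ptprc, and the intervals of Ccl2, Ccl4, Ccl5 and Cxcl1 lay wholly above that of Ptprc. In the ergosterol liver 2 ligands and 3 receptors had a higher ratio, with Ccl21c and Ccr7 wholly above. In the stigmasterol liver 8 ligands and 6 receptors had a higher ratio, and Ccl5, Ccl21c, Ccl22, Cx3cl1, Cxcl5, Ccr2, Ccr7 and Cx3cr1 lay wholly above. Summed with its near-identical copy Ccl21a, Ccl21c did not lie wholly above Ptprc with ergosterol (-0.25, -0.78 to 0.26) or stigmasterol (2.49, 2.13 to 2.88). Macrophage markers were 9 of 12 higher and 1 lower with high sitosterol, 3 of 12 higher with ergosterol, and 5 of 12 higher and 3 lower with stigmasterol. Their sums were 847, 478 and 521 scaled CPM, against 289 in the low sitosterol liver. Markers of lipid-laden macrophages were 7 of 8, 4 of 8 and 7 of 8 higher in these livers, summing to 403, 169 and 772 against 88.3. T cell markers were 3 of 7, 0 of 7 and 5 of 7 higher, and summed to 5.51, 4.80 and 11.3 against 4.37. With high sitosterol 1 of them, Cd4, was called lower (-1.71, -2.40 to -1.09). Monocyte markers were 2 of 5, 1 of 5 and 3 of 5 higher, with 1 lower for ergosterol. Their sums were 31.7, 16.9 and 39.3 against 18.05. Of all genes, 8.67%, 6.05% and 21.7% were called higher in the high sitosterol, ergosterol and stigmasterol livers, and 4.3%, 5.81% and 7.79% lower. The part of leukocyte number in the chemokine values was not tested.

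In the adrenal gland, 9 of 23 analysed ligands were called higher for high sitosterol (39.1%, beside 3.83% of all 14224 genes) and 1 lower (beside 2.31%), and 6.14% of all genes were called in either direction. The median log2 ratio was 0.82 over the ligands and 0.00 over all genes. Of the 10 analysed receptors 2 were called higher (20.0%, beside 3.83%) and 1 lower (beside 2.31%), with a median of 0.20. Among called members, Ccl2, Ccl3, Ccl4, Ccl7, Ccl8, Ccl12, Cxcl1 and Cxcr2 reached 1 CPM in the high sitosterol adrenal only. Ccl24 and Ccr10 reached it in the low sitosterol adrenal only. Summed TPM was 430.6 in the high sitosterol adrenal against 260.4 in the low sitosterol adrenal for ligands, and 231.1 against 177.3 for receptors.

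**Figure D4:**
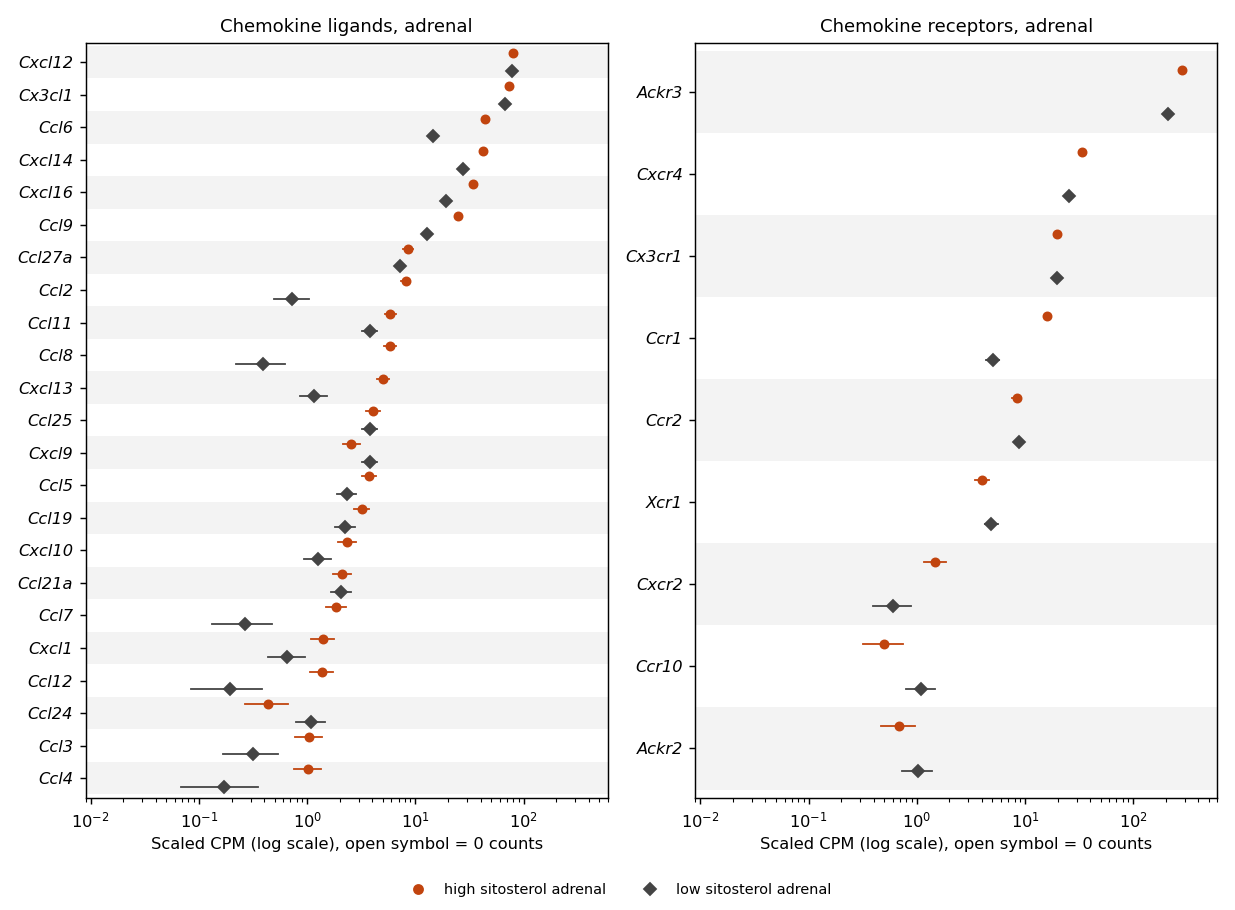
Scaled CPM (log axis) of the 23 ligands (left) analysed in adrenal and of 9 of the 10 receptors (right), 1 symbol per library, with lines for the exact Poisson 95% interval of the count. Ccl8, Ccl2, Ccl7 and Ccl12 lie apart between the libraries, while Cxcl12, Cx3cl1 and Cx3cr1 nearly coincide.

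The highest ratios in adrenal were those of ligands of the run on chr11:82035571-82305690. Ccl8, a ligand of CCR8 in mouse, had 5.83 scaled CPM in the high sitosterol adrenal and 0.387 in the low sitosterol adrenal, a log2 ratio of 3.87 (3.19 to 4.74) or 14.7-fold. Ccl2 had 8.13 and 0.726 scaled CPM in the high and low sitosterol adrenals, a log2 ratio of 3.46 (2.95 to 4.07) or 11.0-fold. Ccl7 (2.75, 1.90 to 3.86) and Ccl12, a mouse CCR2 ligand (2.75, 1.76 to 4.09), were also called, each under 2 scaled CPM and chosen after their values were seen. Ccl11, the eosinophil ligand eotaxin in the same run, likewise chosen afterwards, had 5.87 and 3.80 scaled CPM, a log2 ratio of 0.63 (0.34 to 0.92). So 4 of the 5 analysed genes there were called higher, and the receptor Ccr2 was level, with 8.40 and 8.77 scaled CPM (-0.06, -0.27 to 0.15).

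Ccl6 had 44.4 scaled CPM in the high sitosterol adrenal and 14.7 in the low sitosterol adrenal (1.59, 1.46 to 1.73), and with 68.2 TPM it was the ligand of highest TPM in the high sitosterol adrenal. Its receptor Ccr1 was called as well, with 16.0 and 5.04 scaled CPM in the high and low sitosterol adrenals (1.66, 1.44 to 1.89). Cxcl13, the B cell ligand of CXCR5, had 5.03 and 1.16 scaled CPM (2.10, 1.66 to 2.59). The remaining calls were at low counts. Ccl3 (1.68), Ccl4 (2.50) and Cxcl1 (1.07) were higher with at most 1.39 scaled CPM, and Ccl24 was lower with 0.434 and 1.09 scaled CPM (-1.30, -2.15 to -0.55). The calls of Cxcl1 and Ccl24 in adrenal were lost with TPM. Among receptors, Cxcr2 was higher with 1.49 and 0.605 scaled CPM (1.28, 0.62 to 2.02), and Ccr10, a receptor of skin-homing T cells chosen after its values were seen, was lower with 0.496 and 1.09 (-1.12, -1.91 to -0.39).

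Fractalkine and CXCL12 genes were abundant in adrenal and near level. Cx3cl1 had 73.5 and 67.0 scaled CPM in the high and low sitosterol adrenals (0.13, 0.06 to 0.21), and its receptor Cx3cr1 had 19.8 in both (0.00, -0.13 to 0.14). Cxcl12 had 79.5 and 78.5 scaled CPM (0.02, -0.05 to 0.09). Its scavenger Ackr3 had 280.3 and 208 scaled CPM (0.43, 0.39 to 0.47), and its receptor Cxcr4 33.4 and 25.4 (0.39, 0.28 to 0.51). In TPM, Ackr3 held 67.8% of the receptor sum in the high sitosterol adrenal and 65.8% in the low sitosterol adrenal. Its 157 and 117 TPM there stand beside 0.155 to 1.37 TPM in the 4 livers.

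The other named members were under 2-fold in adrenal. Cxcl16 had 34.0 and 19.3 scaled CPM in the high and low sitosterol adrenals (0.82, 0.69 to 0.94), Ccl5 3.74 and 2.32 (0.69, 0.32 to 1.06), Cxcl10 2.36 and 1.26 (0.90, 0.42 to 1.41) and Cxcl9 2.56 and 3.78 (-0.56, -0.91 to -0.21). The direction of Cxcl9 depends on the unit, since its ratio was 0.04 on the log2(TPM + 0.1) scale. Cxcl14 had 41.8 and 27.5 scaled CPM (0.61, 0.50 to 0.71), and Ccl9 had 24.55 and 12.8 (0.94, 0.79 to 1.09), just under 2-fold. Log2 ratios of Ccl19, Ccl21a, Ccl25 and Ccl27a lay between 0.04 and 0.50. In TPM, Ccl21a (4.51 against 7.20) and Ccl25 (6.78 against 7.94) were instead lower in the high sitosterol adrenal. Summed with its near-identical copy Ccl21c, at 19 and 0 counts, Ccl21a had a ratio of 0.28 (-0.13 to 0.70). Xcr1 (-0.28, -0.57 to 0.01) and Ackr2 (-0.57, -1.28 to 0.12) had intervals that reach past equality. Ackr1, Ccr7 and Cxcr3 were under 1 CPM in both adrenals. Of the ligands not analysed, 12 had counts in adrenal and Ccl20, Ccl26, Ccl27b and Cxcl15 had 0.

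Cell markers moved in adrenal too. Ptprc had 23.95 and 17.1 scaled CPM in the high and low sitosterol adrenals, a log2 ratio of 0.49 (0.35 to 0.62). Neutrophil markers were 6 of 7 higher, summing to 29.4 against 9.27 scaled CPM, monocyte markers 4 of 6 higher (76.2 against 30.3) and macrophage markers 6 of 11 higher (571 against 384). Markers of lipid-laden macrophages went the other way in their calls, with 1 higher and 3 lower of 8 (690.2 against 1158). Lpl alone, at 275.7 against 825.1 scaled CPM, differed by more than that sum did, and Mmp12 and Gpnmb were also called lower. Dendritic cell markers had 1 higher and 2 lower of 5 (32.7 against 31.3). Of the neutrophil list, Ly6g and Camp were at 0 in the low sitosterol adrenal. Adipocyte markers were 4 of 5 lower, summing to 1309 in the high sitosterol adrenal against 2950 in the low sitosterol adrenal. Of all genes, 3.83% were called higher and 2.31% lower in adrenal. The part of these cell types in the adrenal values was not tested.

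Genes on the way from receptor to cell movement were counted from a list of 30, of which 29 were analysed in each tissue. In the high sitosterol liver 17 of 29 were called higher and 0 lower, with Pik3r5 (a regulatory subunit of PI3K gamma) at 2.04, the Src family kinase Fgr at 2.0 and the Rac activator Vav1 at 1.90 (log2 ratios). In the ergosterol liver 4 were called higher and 1 lower, with the actin regulator Was at 1.84 and the integrin chain Itgal at 1.41. In the stigmasterol liver 21 were called higher and 0 lower, with Elmo1, a partner of DOCK proteins in Rac activation, at 2.83 and Pik3r5 at 2.78. In adrenal 3 were higher and 0 lower, led by Rgs1, which shortens G protein signals in leukocytes, at 1.34. List medians were 1.19, 0.50, 1.72 and 0.33 in that order, beside -0.05, 0.02, 0.08 and 0.00 over all genes. For this list and those that follow, the shares of all genes called higher were 8.67%, 6.05% and 21.7% in the high sitosterol, ergosterol and stigmasterol livers and 3.83% in adrenal, and the shares called lower were 4.3%, 5.81%, 7.79% and 2.31%.

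Genes known to be induced by NF-kB, with no chemokine among them, were 12 of 21 higher and 0 lower with high sitosterol. With ergosterol 1 was higher and 1 lower, with stigmasterol 11 were higher and 2 lower, and in adrenal 6 of 22 were higher and 0 lower. Lcn2, a siderophore-binding protein of inflamed liver, had 99.2, 2.81 and 172 scaled CPM in the high sitosterol, ergosterol and stigmasterol livers and 6.89 in the low sitosterol liver. In adrenal Il6, a cytokine gene, had 139 counts for high and 1 for low sitosterol (6.35, 4.39 to 12.21). Interferon-induced genes were 1 of 19 higher and 0 lower with high sitosterol, 0 in either direction with ergosterol, 5 higher and 1 lower in the stigmasterol liver, and 1 higher and 0 lower in adrenal, shares near or below 8.67%, 6.05%, 21.7% and 3.83% of all genes. Median ratios were 0.29, -0.07, 0.36 and 0.15 for that list and 1.07, -0.21, 1.22 and 0.56 for the NF-kB list, in the order of high sitosterol, ergosterol and stigmasterol liver and adrenal.

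Chemokine genes whose symbols do not follow the pattern were looked at beside the members. Pf4, the platelet chemokine CXCL4, had 115 counts in the high sitosterol liver and 207 in the stigmasterol liver, against 24 in the low sitosterol liver, log2 ratios of 2.06 (1.44 to 2.78) and 2.35 (1.76 to 3.05). Ppbp, the platelet precursor of a CXCR2 ligand, was called higher for high sitosterol (1.52, 0.82 to 2.32) and lower for stigmasterol (-1.28, -2.41 to -0.28). Its lower call rests on 14 against 21 counts in libraries of near-equal totals (50573364 and 49125137), with TMM factors of 1.35 and 0.83. The call was not recomputed with library totals, but before TMM scaling these counts differ by less than 2-fold. Cmklr1, the chemerin receptor of macrophages, was called higher for high sitosterol (1.40, 1.04 to 1.78) and stigmasterol (1.91, 1.57 to 2.26). Ccrl2, which binds chemerin without signalling, was called lower for ergosterol (-1.25, -1.84 to -0.70). Of the 4 genes of this list analysed in adrenal, 0 were called there.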

How the data were processed

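RNA of 4 livers and 2 adrenal glands was sequenced. The authors deposited estimated counts and TPM per gene, and 25.1% to 32.5% of genes per library had a count that was not whole (tolerance 0.01). Per the submitters' processing notes, Trimmomatic 0.33, HISAT2 2.0.5, kallisto 0.43.1 and the mouse build mm10 were used, with no role or order stated. The annotation and filters are not given in the sources used here. TPM, as deposited, is relative to the library and per transcript length.

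Estimated counts were rounded, and 1 row that names no gene (0 counts) was left out. TMM factors (edgeR 4.0.16, R 4.3.3) were 0.83 to 1.35 in liver and 0.99 to 1.01 in adrenal. A log2 ratio is that of scaled counts with a prior count of 0.5 added. In a library with 0 counts of a gene, the limit was 3 counts, or 0.0440 to 0.0733 scaled CPM. A fold set against that limit takes the other library at its count, without its counting error. Intervals and limits cover counting error only. Alternatives were library totals, DESeq2 1.42.0 size factors, log2(TPM + 0.1) and log2(TPM + 1), filters of 0 and 5 CPM, prior counts and 1.5-fold. Steps were checked on simulated data. Genes and clusters (neighbours under 500 kb apart) were placed with GENCODE M21.

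Members named were those called in a tissue with 2 scaled CPM or more in its highest library, plus a fixed set of the best-known members. Other lists give up to 3 genes with the largest ratios. Members and lists were chosen with earlier results of these data known. Of the receptors, 1 is counted in the sums, counts and medians but not reported here by itself.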

Additional observations from a re-analysis of the deposited data

Results flagged for a closer look

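For 3 members the ratio of high to low sitosterol pointed in opposite directions in liver and adrenal. The difference between the tissues was not tested, since each tissue has 1 library per diet. Ccl24, an eosinophil ligand, had a log2 ratio of 0.68 in liver and -1.30 in adrenal. Cxcl9, a CXCR3 ligand, had a log2 ratio of 0.59 in liver and -0.56 in adrenal. Its adrenal ratio was 0.04 on the log2(TPM + 0.1) scale. Cxcr2, the neutrophil receptor, had a log2 ratio of -0.85 in liver and 1.28 in adrenal. The calls were Ccl24 lower and Cxcr2 higher, both in adrenal.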

How the results depend on the processing

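No paired analysis was possible because each group was 1 library, and no library could be left out for the same reason. Of the counts of calls under each alternative, 89 stayed within 1.5 times the main count and 39 did not. Of the log2 ratios of named members, 363 stayed within their interval, 100 moved outside it and 0 changed sign while called. The cause of each shift below was not tested, except that stricter limits leave fewer members.

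With library totals, ergosterol receptors higher came to 2 and stigmasterol ligands lower to 0. With log2(TPM + 0.1), ergosterol receptors were 3 higher and 1 lower, stigmasterol ligands 19 higher and 0 lower, and adrenal ligands 0 lower. With log2(TPM + 1), ergosterol ligands were 0 lower, ergosterol receptors 0 higher and 0 lower, high sitosterol liver receptors 2 higher, stigmasterol ligands 0 lower, stigmasterol receptors 6 higher, adrenal ligands 0 lower, and adrenal receptors 1 higher and 0 lower.

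With no filter, 2 ligands and 1 receptor were lower in the high sitosterol liver, 2 ligands and 1 receptor in the stigmasterol liver and 3 ligands in adrenal. With 5 CPM, ergosterol ligands were 3 lower and receptors 0 lower, high sitosterol liver ligands 7 higher, stigmasterol ligands 0 lower and receptors 5 higher, adrenal ligands 4 higher and 0 lower, and adrenal receptors 1 higher and 0 lower. With a prior count of 3, ergosterol ligands higher came to 1 and stigmasterol ligands lower to 0. With 1.5-fold, ergosterol receptors were 2 higher and 4 lower, 1 ligand and 1 receptor were lower in the high sitosterol liver, 4 ligands and 1 receptor in the stigmasterol liver, and 15 adrenal ligands were higher.

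Summing Ccl21a and Ccl21c, chosen after seeing the data, gave -0.25 for ergosterol in place of -2.05 for Ccl21a, and 2.49 for stigmasterol in place of 1.53. Depth limits members near 3 counts, such as Ccl4 in the low sitosterol liver and Ccr1 in the ergosterol liver.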
